A study of Mus musculus with 8 samples.

Results

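The genes described here are 33 enteroendocrine genes: 10 peptide hormones and secreted products, 11 genes of the secretory granule, of peptide processing and of release, 3 genes of monoamine synthesis and loading, and 9 transcription factors of the lineage. They were grouped by function, and no value of these arrays enters the rule that lists them, although the list was drawn up with earlier results of these data known. Of the 33, 29 had a probe that 4 or more of the 8 arrays read well above background and count as measured, among 25404 features tested in all. Pax4, Pax6, Rfx6 and Scgn did not reach that limit and are described apart.

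RNA came from Lgr5-high intestinal stem cells, sorted by their reporter, 4 control and 4 Irf2AhcKO samples, each on a 1-colour Agilent array. Control mice were Irf2fl/fl with the Lgr5-EGFP-Ires-CreERT2 allele. Irf2AhcKO mice carried the same floxed gene and the same Lgr5 allele, and an Ah-Cre transgene in addition. Both groups received β-naphthoflavone (βNF) on 5 consecutive days, and cells were taken 1 month later, so the drug, the floxed gene and the CreERT2 knock-in are shared by all samples. In Ah-Cre the recombinase sits behind a promoter that xenobiotics such as βNF induce, in cell types beyond the stem cells too. In control replicates 3 and 4 the scanner data carry names that mention Ah-Cre, so the genotype of those controls is unsettled, and groups were taken from the labels. The design text speaks both of 4 independent mice and of 2 biological replicates, so p-values here measure the spread between these samples, which may in part be technical.

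Enteroendocrine cells are the hormone-secreting cells of the gut epithelium and descend from the Lgr5 stem cells of the crypt. NEUROG3 starts the lineage, factors such as NEUROD1, INSM1 and NKX2-2 carry it on, and each subtype makes its own set of peptide hormones. Hormone precursors are packed with granins into dense-core granules, where convertases and carboxypeptidase E cut them, and the granules are released by calcium-triggered exocytosis. A sort for high Lgr5 signal is meant to enrich stem cells, and the values here are those of this lineage's transcripts in that sorted sample. In such bulk RNA, fewer cells of a type and less RNA per cell cannot be told apart.

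Levels are log2 of the processed intensity minus the array's 75th percentile, so a level of 0 equals that percentile and a difference of 1 is a factor of 2. A probe's level depends on its sequence, so levels are compared between arrays and never between genes. Between 61.4% and 69.8% of spots were well above background on an array, and no spot was saturated. Replicates 1 and 2 of both groups lay on slide 1 and replicates 3 and 4 on slide 2, and the slide was a term in the limma fit. The Irf2 probe did not show the deletion: its level was 0.64 ± 0.26 (SD, n = 4) in control and 0.91 ± 0.23 (SD, n = 4) in Irf2AhcKO, a difference of 0.27 (SE 0.12, limma adjusted p = 0.429). The sources used here do not say whether that probe lies in the deleted stretch, so it does not check the labels, and the direction of every difference rests on them. Lgr5 itself was bright, at 3.17 ± 0.24 in control and 2.88 ± 0.41 in Irf2AhcKO (SD, n = 4 each, limma adjusted p = 0.502). Olfm4 was not among the features tested, and whether it lacked a named probe or a signal was not looked at.

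Sequence just upstream of 4 of these genes is shown here because 3 of them, Chgb, Scg2 and Pcsk1, are granule and processing genes and the other, Sst, is a hormone, and all carry the same letters. Promoter windows of 250 bases before to 50 bases after the gene's start, from RefSeq on build GRCm38.p6, were found for 29 of the 33 genes. Capitals mark the cyclic AMP response element TGACGTCA and, in Pcsk1 and Sst, a match to GAAA followed by any 2 bases and GAAA again, the core of an interferon response element of the kind IRF2 binds, which lies on the opposite strand. Both strands were searched. Each sequence is given 5′ to 3′ on the gene's own strand: Chgb at chr2:132781542-132781641 (plus strand), Scg2 at chr1:79440027-79440126 (minus strand), Pcsk1 at chr13:75089657-75089856 (plus strand) and Sst at chr16:23890845-23891044 (minus strand).
Chgb: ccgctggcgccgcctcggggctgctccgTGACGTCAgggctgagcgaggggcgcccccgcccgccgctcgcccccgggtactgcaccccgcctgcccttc
Scg2: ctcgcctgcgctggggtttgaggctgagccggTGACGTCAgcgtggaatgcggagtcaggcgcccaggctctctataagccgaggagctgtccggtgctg
Pcsk1: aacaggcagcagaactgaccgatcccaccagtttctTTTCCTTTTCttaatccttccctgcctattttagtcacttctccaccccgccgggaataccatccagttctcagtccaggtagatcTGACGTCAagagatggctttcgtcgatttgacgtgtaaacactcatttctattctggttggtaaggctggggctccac
Sst: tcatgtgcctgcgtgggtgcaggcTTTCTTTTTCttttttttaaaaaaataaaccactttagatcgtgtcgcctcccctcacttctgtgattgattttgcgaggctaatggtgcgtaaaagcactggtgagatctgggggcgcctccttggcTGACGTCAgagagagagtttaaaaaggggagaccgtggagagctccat

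The full element TGACGTCA was found in the windows of 5 of the 29 genes (17.2%), against 2.03% of the 27025 genes with a window. Its first letter lay 72 bases before the start of Chgb, 68 before Scg2, 78 before Pcsk1, 48 before Sst and 76 before Pax6. The shorter element TGACG, which lies within the full one, was present in 14 of 29 windows (48.3%), against 23.0% of all genes. The spaced GAAA pair was present in 2 of 29 (6.90%) against 3.99% of all genes, 164 bases before the start of Pcsk1 and 176 before that of Sst. The E-box CAGATG stood in 6 windows (20.7% against 19.2%) and the E-box CAGCTG in 8 (27.6% against 18.3%). A match is a description of letters and not a binding site. The 4 genes shown did not share a direction between the groups: Chgb (0.33) and Pcsk1 (0.60) had higher and Scg2 (-0.20) and Sst (-0.15) lower log2 means in Irf2AhcKO, and none of these passed the test.

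No enteroendocrine gene differed between Irf2AhcKO and control stem cells beyond the adjusted threshold of 0.05 (limma, slide as a term, adjusted over all 25404 features). Across all features 25 passed (0.0984%), 14 higher (0.0551%) and 11 lower (0.0433%), so 0 of 29 is close to that share. An unadjusted limma p below 0.05 was reached by 5 of the 29 (17.2%), against 11.7% of all features: Chga, Pcsk1, Tac1 and Vwa5b2 with higher means and Gip with a lower mean in Irf2AhcKO. The smallest adjusted p of the 29 was 0.196, for Pcsk1. Differences ran from -0.84 (Nts) to 0.89 (Tph1), 15 positive and 14 negative, with a median of 0.04 beside a median of -0.00 over all features. Every control array lay on the same side of every Irf2AhcKO array for Chga and Vwa5b2, 2 of 29 (6.90%), against 3.85% of all features.

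**Figure D1:**
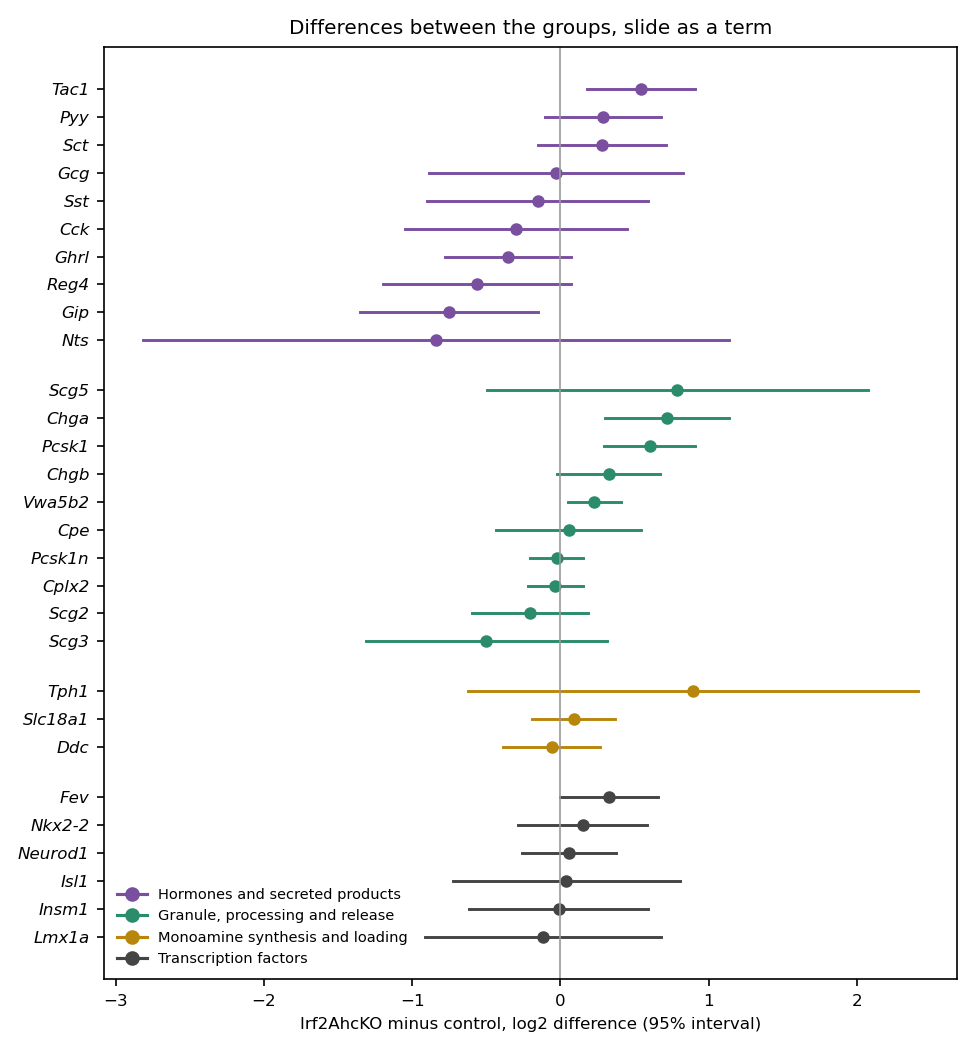
Log2 difference between Irf2AhcKO and control for each of the 29 measured genes, grouped by role, from the limma fit with slide as a term; points are estimates and lines 95% intervals. The intervals of Chga, Pcsk1, Tac1 and Vwa5b2 lie above 0 and that of Gip below, before any adjustment over features, and the intervals of Nts, Scg5 and Tph1 are the widest of their roles.

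Among the 10 hormones and secreted products, 3 differences were positive and 7 negative, with a median of -0.23. Tac1, which encodes substance P and neurokinin A and is made by serotonin-producing enterochromaffin cells, had the smallest p of the group. Its levels were -2.19, -1.88, -0.72 and -0.72 on control replicates 1 to 4 and -1.45, -1.09, -0.20 and -0.59 on Irf2AhcKO replicates 1 to 4. On each slide both Irf2AhcKO arrays lay above both controls, while the groups overlapped across slides because slide 2 read higher. The difference was 0.54 (SE 0.15, limma adjusted p = 0.301), 0.76 on slide 1 and 0.32 on slide 2. Gip, the incretin of K cells, read -1.88, -1.93, -1.09 and -0.57 in control and -1.99, -2.80, -2.20 and -1.49 in Irf2AhcKO. It was lower in Irf2AhcKO on both slides, by values of -0.49 and -1.01, and the groups overlapped, since Irf2AhcKO replicate 4 lay above control replicates 1 and 2. The fitted difference was -0.75 (SE 0.25, limma adjusted p = 0.359).

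Gcg, the precursor of the incretin GLP-1 in L cells, read -2.53, -0.94, -0.49 and -0.46 in control and -1.28, -2.36, -0.45 and -0.45 in Irf2AhcKO. All 4 arrays of slide 2 lay close together and the arrays of slide 1 were spread in both groups, giving a difference of -0.03 with a 95% interval from -0.89 to 0.83. Pyy, the satiety peptide that L cells make beside GLP-1, read -3.16, -3.53, -2.57 and -3.02 in control and -3.11, -2.81, -2.84 and -2.38 in Irf2AhcKO. The groups overlapped (difference 0.29, interval -0.11 to 0.68). Neurotensin (Nts), a product of the same cells farther up the villus, was well above background on only 2 arrays of each group. Its levels were -2.78, -5.28, -5.30 and -4.09 in control and -6.58, -6.59, -3.47 and -4.17 in Irf2AhcKO, so the sign turned between the slides, -2.56 on slide 1 and 0.88 on slide 2. The pooled value of -0.84 has an interval from -2.82 to 1.14 and gives no direction.

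Sst, the inhibitory hormone of D cells, read -2.04, -2.67, -1.83 and -0.75 in control and -2.15, -2.08, -2.21 and -1.46 in Irf2AhcKO. The highest array of each group was its replicate 4, the groups overlapped, and the sign differed between slide 1 (0.24) and slide 2 (-0.54). Cholecystokinin (Cck), which drives gallbladder contraction and pancreatic enzyme secretion, read -1.66, -1.74, -1.05 and -0.72 in control and -1.38, -2.72, -0.67 and -1.59 in Irf2AhcKO. Its control values lay inside the range of the Irf2AhcKO values (difference -0.30, interval -1.05 to 0.45). Secretin (Sct), which stimulates bicarbonate secretion, read -0.12, -0.92, 0.08 and -0.02 in control and -0.31, -0.17, 0.52 and 0.09 in Irf2AhcKO, overlapping groups with the same difference of 0.28 on both slides.

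Ghrelin (Ghrl), the appetite hormone, read 0.24, 0.90, 1.46 and 1.09 in control and 0.15, -0.10, 1.20 and 1.02 in Irf2AhcKO. On slide 1 both Irf2AhcKO arrays lay below both controls and on slide 2 the groups overlapped, and the difference of -0.36 (SE 0.18) had a limma adjusted p of 0.473. Reg4, a secreted lectin of the regenerating family found in enteroendocrine and deep crypt secretory cells, read -0.41, -0.66, 0.02 and -0.31 in control and -1.15, -1.91, 0.06 and -0.61 in Irf2AhcKO. Its replicates 1 and 2 of Irf2AhcKO were the lowest of all 8 arrays, and on slide 2 the groups overlapped (-1.0 on slide 1, -0.13 on slide 2). The fitted difference of -0.56 (SE 0.27) had a limma adjusted p of 0.460.

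**Figure D2:**
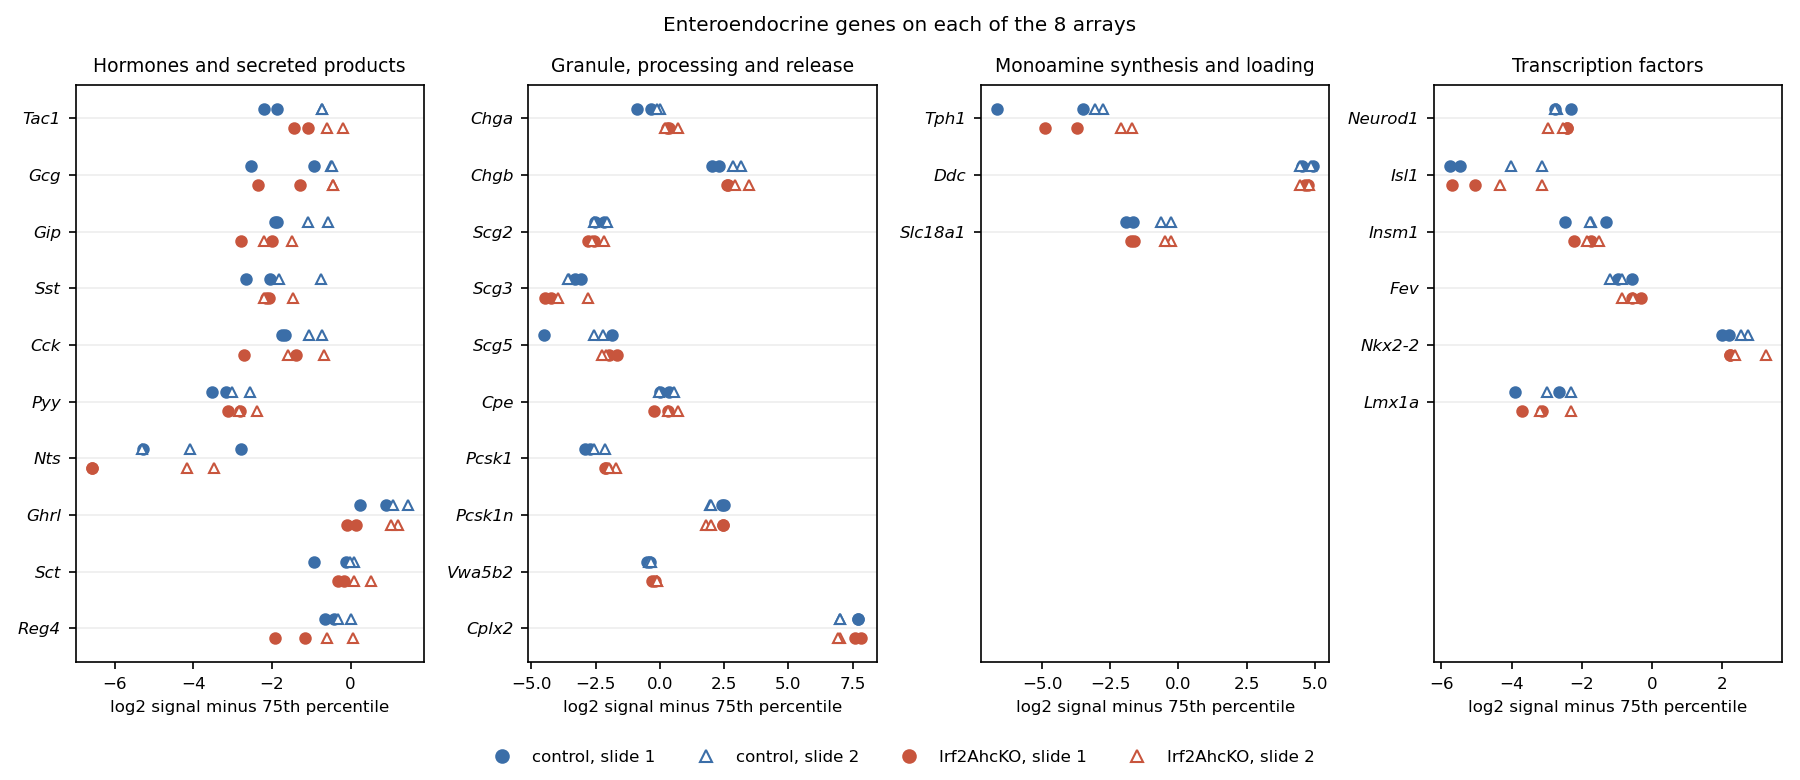
Level of each measured gene on each array (log2 processed signal minus the array's 75th percentile), in 4 panels by role with their own horizontal scales; circles are slide 1, triangles slide 2, blue control and red Irf2AhcKO. For Tac1, Gcg, Ghrl, Sct and Reg4 the triangles lie to the right of the circles in both colours, while for Chga and Vwa5b2 all red symbols lie to the right of all blue ones.

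Of the 10 measured genes of the granule, of processing and of release, 6 differences were positive and 4 negative, with a median of 0.14. Chromogranin A (Chga), the granin used as a general marker of enteroendocrine cells, read -0.91, -0.34, 0.02 and -0.11 in control and 0.34, 0.29, 0.71 and 0.21 in Irf2AhcKO. All 4 Irf2AhcKO arrays lay above all 4 controls, and control replicate 1 was the lowest. The difference was 0.72 (SE 0.18, interval 0.30 to 1.13, limma adjusted p = 0.250), 0.93 on slide 1 and 0.50 on slide 2. With the normexp background correction it was 0.60, at a limma adjusted p of 0.0965, the smallest that any of these genes reached under any setting tried. That correction gave differences nearer to 0 for other genes too: 0.33 for Pcsk1, 0.30 for Tac1, -0.39 for Gip, 0.17 for Tph1, -0.10 for Nts and 0.32 for Scg5 (limma adjusted p from 0.142 for Pcsk1 to 0.761 for Nts). Chromogranin B (Chgb), its companion in granule formation, read 2.04, 2.29, 3.15 and 2.84 in control and 2.59, 2.66, 3.45 and 2.93 in Irf2AhcKO. On each slide its Irf2AhcKO arrays lay above those of control except for Irf2AhcKO replicate 4, which lay between the controls of slide 2 (difference 0.33, SE 0.15, limma adjusted p = 0.444).

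Pcsk1, the convertase that cuts prohormones at pairs of basic residues, read -2.93, -2.71, -2.14 and -2.57 in control and -2.09, -2.14, -1.71 and -2.0 in Irf2AhcKO. On each slide both Irf2AhcKO arrays lay above both controls, and across slides control replicate 3 and Irf2AhcKO replicate 2 were level. The difference was 0.60 (SE 0.13, interval 0.30 to 0.91, limma adjusted p = 0.196), 0.70 on slide 1 and 0.50 on slide 2. Its inhibitor proSAAS (Pcsk1n) read 2.40, 2.48, 1.95 and 1.98 in control and 2.45, 2.46, 1.81 and 2.00 in Irf2AhcKO. Here the arrays sorted by slide and not by group, with a difference of -0.03 and an interval from -0.20 to 0.15 that leaves out a change of the size fitted for Pcsk1. Carboxypeptidase E (Cpe), which trims the basic residues that the convertases leave, read 0.01, 0.37, -0.03 and 0.56 in control and 0.32, -0.23, 0.72 and 0.31 in Irf2AhcKO, overlapping groups with a difference of 0.06 (interval -0.43 to 0.54). Scg5, the chaperone of the related convertase PC2, read -4.50, -1.88, -2.58 and -2.21 in control and -2.0, -1.69, -2.08 and -2.25 in Irf2AhcKO. The low control replicate 1, the array of this gene not well above background, set most of its difference of 0.79 (SE 0.55, limma adjusted p = 0.573), which was 0.15 without that array.

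Secretogranin II (Scg2), a granin and precursor of secretoneurin, read -2.53, -2.19, -2.58 and -2.06 in control and -2.57, -2.79, -2.18 and -2.63 in Irf2AhcKO. The groups overlapped (difference -0.20, interval -0.60 to 0.19). Secretogranin III (Scg3), which tethers granins to the granule membrane, read -3.07, -3.31, -3.53 and -3.58 in control and -4.24, -4.47, -3.97 and -2.80 in Irf2AhcKO. Irf2AhcKO replicate 4 was the highest array and the other three of that group the lowest, so the sign turned from -1.17 on slide 1 to 0.17 on slide 2. Complexin 2 (Cplx2), which clamps and primes SNARE-driven fusion, read 7.72, 7.72, 7.01 and 7.0 in control and 7.81, 7.57, 6.99 and 6.93 in Irf2AhcKO. The brightest of its 4 probes, used here, separated the slides and not the groups (difference -0.04, interval -0.22 to 0.15). Vwa5b2, a protein with a von Willebrand factor type A domain, read -0.37, -0.51, -0.44 and -0.35 in control and -0.19, -0.31, -0.13 and -0.12 in Irf2AhcKO. All 4 Irf2AhcKO arrays lay above all controls, by a margin smaller than for Chga, and the difference was 0.23 (SE 0.08, limma adjusted p = 0.353).

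The monoamine genes make and store serotonin in enterochromaffin cells, the cells that also hold Tac1. Tryptophan hydroxylase (Tph1), the rate-limiting enzyme, read -6.67, -3.50, -2.78 and -3.07 in control and -3.72, -4.91, -1.71 and -2.10 in Irf2AhcKO, and was well above background on 3 arrays of each group. Both slide 2 arrays of Irf2AhcKO lay above both slide 2 controls and the slide 1 arrays overlapped, giving a difference of 0.89 with an interval from -0.63 to 2.41. It was 0.28 without control replicate 1, the lowest array, and 1.55 without control replicate 2. Aromatic amino acid decarboxylase (Ddc), the next enzyme, read 4.96, 4.55, 4.87 and 4.48 in control and 4.75, 4.65, 4.78 and 4.45 in Irf2AhcKO. Its groups overlapped on both slides (difference -0.06, interval -0.39 to 0.27). The vesicular monoamine transporter Slc18a1 read -1.94, -1.66, -0.64 and -0.28 in control and -1.76, -1.62, -0.27 and -0.51 in Irf2AhcKO. Its arrays sorted by slide, and the difference was 0.09 (interval -0.19 to 0.37).

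Of the 6 measured transcription factors 4 differences were positive and 2 negative, with a median of 0.05, and no unadjusted p fell below 0.05. Fev, the factor of serotonin-producing cells, came nearest: it read -0.98, -0.57, -1.20 and -0.85 in control and -0.57, -0.31, -0.55 and -0.86 in Irf2AhcKO. The groups overlapped and the difference of 0.33 (SE 0.14, limma adjusted p = 0.429) was alike on the slides, 0.34 and 0.32. Neurod1, which acts directly after NEUROG3, read -2.77, -2.31, -2.72 and -2.75 in control and -2.42, -2.42, -2.53 and -2.95 in Irf2AhcKO, overlapping groups with a difference of 0.06 (interval -0.26 to 0.37). Insm1, a zinc finger repressor of the endocrine lineages, read -2.48, -1.30, -1.75 and -1.76 in control and -2.23, -1.75, -1.52 and -1.85 in Irf2AhcKO. Its Irf2AhcKO values lay inside the range of the controls (difference -0.01, interval -0.62 to 0.59).

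Nkx2-2, a homeobox factor that sets hormone identity, read 2.20, 1.99, 2.72 and 2.54 in control and 2.23, 2.22, 3.25 and 2.36 in Irf2AhcKO. Irf2AhcKO replicate 3 stood above the other 7 arrays and the rest overlapped (difference 0.15, interval -0.28 to 0.59). Isl1, a LIM homeobox factor of several hormone subtypes, read -5.76, -5.47, -3.13 and -4.02 in control and -5.70, -5.05, -3.14 and -4.34 in Irf2AhcKO, and was well above background on 2 arrays of each group. The arrays sorted wholly by slide, with a group difference of 0.04 (interval -0.73 to 0.81). Lmx1a, a factor of enterochromaffin cells, read -3.90, -2.65, -2.32 and -3.00 in control and -3.14, -3.69, -2.32 and -3.20 in Irf2AhcKO. Its groups overlapped, and the interval from -0.91 to 0.68 would hold a large change in either direction.

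The genes not measured were 3 transcription factors and the calcium sensor secretagogin (Scgn). Both probes of Pax6 and the single probes of Rfx6 and Scgn were well above background on 0 arrays. Pax4, a paired homeobox factor early in the lineage, was well above background on 3 Irf2AhcKO arrays and on 0 control arrays. It read -5.29, -5.86, -4.14 and -4.72 in control and -3.59, -3.79, -3.87 and -4.22 in Irf2AhcKO. The groups overlapped, since Irf2AhcKO replicate 4 lay below control replicate 3. With the control levels raised to at least the floor of detection, the Irf2AhcKO mean was 1.59-fold that of control. This is not a strict bound, because the Irf2AhcKO array not well above background entered at its read level. In a fit of all probes without the filter the difference was 1.13 (SE 0.35, limma adjusted p = 0.569).

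Several of the genes had more than 1 probe. For Cplx2, 3 further probes gave differences of 0.22, 0.23 and 0.86, the last set by a low control replicate 1 (3.74 against 5.89 to 6.85 on the other controls), where the brightest probe gave -0.04. For Cpe the further probes gave -0.08 and -0.20, the second well above background on 2 arrays only, beside 0.06. The second probes of Ddc (-0.14) and Neurod1 (0.12) had the sign of the first. Those of Nkx2-2 and Vwa5b2 were well above background on 0 arrays, so the difference of Vwa5b2 rests on 1 probe.

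The difference between groups had the same sign on both slides for 20 of the 29 genes (69.0%), against 62.2% of all features. Their median difference was 0.11 on slide 1 and 0.07 on slide 2. With 2 arrays a group on a slide, these are values beside the fit and each slide holds other samples. The controls of slide 2 are those of unsettled genotype. Among the 20, the differences of Chga, Pcsk1, Tac1, Tph1, Chgb, Fev and Vwa5b2 were positive on both and those of Gip, Ghrl, Reg4 and Cck negative on both. The sign turned for the other 9: Nts, Scg3, Sst, Cpe, Isl1, Insm1, Neurod1, Gcg and Pcsk1n.

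**Figure D3:**
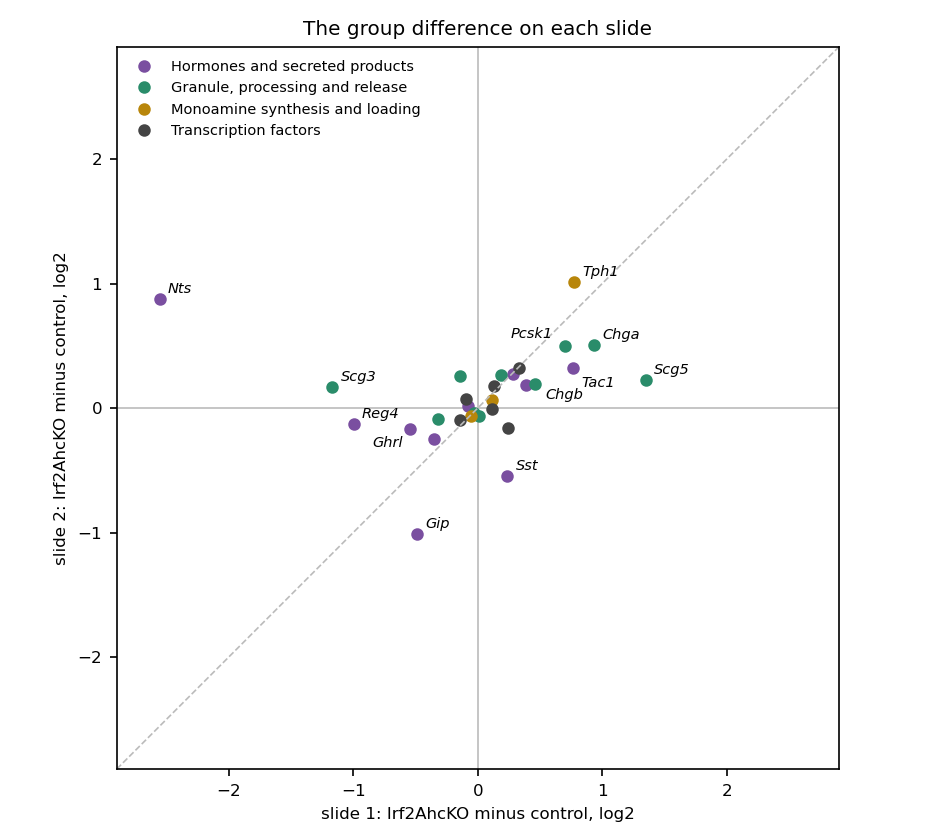
Log2 difference between Irf2AhcKO and control within slide 1 (horizontal) and within slide 2 (vertical) for the 29 measured genes, coloured by role; the dashed line marks equal values. Chga, Pcsk1 and Tac1 lie in the upper right, Gip in the lower left, and Nts in the upper left at -2.56 on slide 1 and 0.88 on slide 2.

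These genes differed between the slides more than between the groups, as did all features (35.5% past the adjusted limma threshold for slide, 0.0984% for group). With group as a term, 24 of the 29 genes read higher on slide 2 than on slide 1, against 10825 of all 25404 features. The median slide 2 minus slide 1 difference of the 29 was 0.55, where over all features it was -0.08. Of the 29, 10 passed the adjusted threshold for slide (34.5%), against 35.5% of all features. Of those 10, 8 were higher on slide 2, where 3046 of the 9016 features passing for slide were (12% of all features). The 8 were Gcg, Ghrl, Gip, Tac1, Chgb, Slc18a1, Tph1 and Isl1, and the 2 lower ones Pcsk1n (-0.51, limma adjusted p = 0.00267) and Cplx2 (-0.72, limma adjusted p = 0.000871). All 10 hormones read higher on slide 2, with a median of 0.85. The widest shifts among the genes passing for slide were those of Tph1 at 2.28, Isl1 at 1.84, Slc18a1 at 1.32, Gcg at 1.31 and Tac1 at 1.09 (limma adjusted p from 0.000470 for Slc18a1 to 0.0307 for Tph1).

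The shift was present in each group taken alone. Its median over the 29 genes was 0.55 among control arrays and 0.55 among Irf2AhcKO arrays, and 21 of 29 (72.4%) were higher on slide 2 in both groups, against 32.1% of all features. Tac1 differed by 1.31 in control and 0.87 in Irf2AhcKO, Gcg by 1.26 and 1.36, and Slc18a1 by 1.35 and 1.30. Markers of Paneth and goblet cells, other secretory cells of the crypt, read higher on slide 2 as well, 4 of 4 measured (of 8 named) with a median of 0.58 and 7 of 8 with a median of 0.57. So did tuft markers (median 0.25, 6 of 6 measured higher) and, by less, stem cell markers (median 0.17, 7 of 12 higher). Neural and glial markers went the other way (median -0.72, 1 of 5 measured higher), and so did 8 measured hormones outside the 33 genes (median -0.27, 1 of 8 higher). Granule and release genes outside the 33 had a median of -0.17 (8 of 21 higher), nutrient sensors -0.19 (4 of 11) and other lineage factors -0.04 (6 of 14). Enterocyte markers had a median of -0.06 (3 of 8 higher) and leukocyte markers -0.45 (3 of 9). Slide, scan and the mice coincide and cannot be told apart. The controls on slide 2 are replicates 3 and 4, whose genotype is unsettled, so in control that coincides with slide as well.

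**Figure D4:**
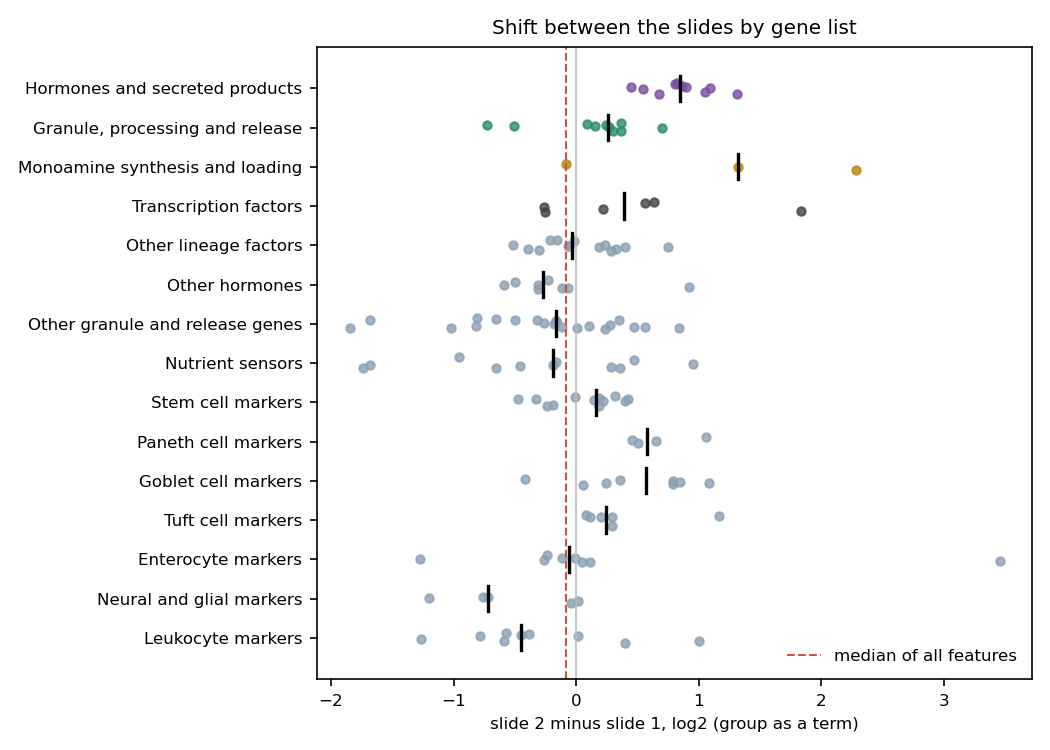
Slide 2 minus slide 1 difference (log2, with group as a term) of each measured gene in the 4 roles and in the other pathway and marker lists; black bars are list medians and the dashed line is the median of all features, -0.08. All 10 hormones lie above 0, and the Paneth and goblet medians lie near 0.58 and 0.57.

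Other genes of the enteroendocrine pathway were read from 4 lists of 79 genes, of which 54 were measured and 1 passed, a fall (limma, 0 rises). Of the 54, 26 differences were positive and 28 negative, with a median of -0.03. The gene that passed was Cadps2, which primes dense-core vesicles for release. It read 1.02, 0.64, 0.38 and 0.47 in control and -1.89, -1.91, -1.82 and -2.46 in Irf2AhcKO. All Irf2AhcKO arrays lay far below all controls, on both slides, and its log2 level fell by 2.65 (SE 0.16, limma adjusted p = 0.0107). With the replicate number as a block its limma adjusted p was 0.0627, and the call was also lost when control replicate 2, Irf2AhcKO replicate 1 or Irf2AhcKO replicate 2 was left out. No other of the 21 measured genes of granules and release passed; the nearest were the monoamine transporter Slc18a2 (-0.57, limma adjusted p = 0.420) and the amidating enzyme Pam (0.18, limma adjusted p = 0.425).

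Among 14 measured lineage factors of 19 named, 0 passed, 5 differences were positive and 9 negative. Neurog3, the factor that starts the endocrine programme, read -0.27, -0.47, -0.04 and -0.11 in control and -0.49, -0.93, -0.18 and -0.71 in Irf2AhcKO. On each slide both Irf2AhcKO arrays lay below both controls, and the groups overlapped across slides (difference -0.36, SE 0.15, limma adjusted p = 0.423). Runx1 (0.55, limma adjusted p = 0.238) and Prox1 (-0.53, limma adjusted p = 0.346) had the smallest p of the list. Of 8 measured further hormones of 14 named, 0 passed, and Adcyap1 (0.30), Npw (0.42) and Edn1 (0.35) had the smallest p. Npw was dim, well above background on 1 control and 3 Irf2AhcKO arrays, and its difference was 0.05 with normexp. Of 11 measured nutrient sensors of 20 named, 0 passed. The long-chain fatty acid receptor Ffar4 came closest of the 4 lists after Cadps2: it read -2.62, -2.54, -1.51 and -1.67 in control and -2.10, -1.89, -1.01 and -1.15 in Irf2AhcKO. Both Irf2AhcKO arrays of each slide lay above both controls (difference 0.55, SE 0.09, limma adjusted p = 0.109). The glucose transporter Slc5a1 (0.38) and the calcium-sensing receptor Casr (-0.55) followed, with limma adjusted p of 0.375 and 0.440.

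Markers of other cell types were read beside these results. Enterocyte markers had lower means in Irf2AhcKO for 8 of 8, with a median difference of -0.83. None passed the adjusted threshold (limma, smallest adjusted p = 0.120), and 7 of 8 had an unadjusted p below 0.05, against 11.7% of all features. Their mean log2 level was 0.14, 0.54, 0.38 and 1.25 on the control arrays and -0.50, -0.67, -0.38 and -0.89 on the Irf2AhcKO arrays. Their summed level ran from 90.5 to 1475 in control and from 64.9 to 81.6 in Irf2AhcKO, in multiples of the 75th percentile. Such a linear sum weighs the brightest genes most, and its control range is far wider than that of the mean log2 levels. The gene behind the 1475 was not singled out. Fitted log2 differences of the 8 ran from -3.85 to -0.50. None of the 8 was below the limit of measurement. Goblet markers were lower for 8 of 8 (median -0.17, summed level 164 to 202 in control and 151 to 217 in Irf2AhcKO) and tuft markers higher for 5 of 6 measured of 8 named (median 0.48, summed level 4.15 to 5.77 in control and 4.76 to 12.4 in Irf2AhcKO), in each case with 0 past the adjusted threshold. Stem cell markers had a median of -0.13 (12 of 13 measured), Paneth markers 0.09, leukocyte markers 0.02 (9 of 12 measured) and neural and glial markers 0.02. Of the last, which mark cells that share granins and complexins with enteroendocrine cells, 5 of 11 were measured (summed level 71.4 to 90.2 in control and 76.3 to 94.4 in Irf2AhcKO), among them Elavl4 (6.06 ± 0.13 in control, 6.19 ± 0.07 in Irf2AhcKO, SD, n = 4 each). The part of other cell types in the differences of the 29 genes was not tested.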

How the data were processed

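Per the labels' protocols, RNeasy columns gave the total RNA of 8 sorted samples, which was whole-transcriptome amplified (Ovation Pico) and Cy3-labelled. Amplification from little RNA can distort single transcripts. The authors' scanner files hold background-subtracted, detrended intensity per spot, made with Agilent Feature Extraction 11.5.1.1, per the submitters' processing notes and the file headers. In the series table that the authors deposited, the same intensity was multiplied by 1 constant per array (6.41 to 6.90), linear and not centred, with column medians from 207 to 246, and the sources used here do not give the reason for the constant.

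Probes (55681) were named through their accession and the RefSeq gene table of GRCm38.p6: 28331 had 1 symbol, 0 several and 27350 none. The grid was annotated on mm9, so no coordinates are given for probes or genes; those of the promoter sequences are the RefSeq table's own, on GRCm38.p6. Log2 processed intensity minus each array's 75th percentile over non-control spots was used without outlier spots (141 to 214 per array). Probes well above background on at least 4 arrays were kept, and each gene took its brightest kept probe.

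The comparison used limma 3.58.1 under R 4.3.3 (lmFit, eBayes, two-sided) with slide as a term, over 25404 features with Benjamini-Hochberg adjustment at 0.05. The members and lists were chosen with earlier results of these data known. All 33 genes are accounted for. From the other pathway lists the genes that passed, the 3 of smallest p per list, Neurog3 and Cadps2 are named. From the marker lists Lgr5 and Olfm4 are named with the list medians, and Elavl4 was added after its values were seen. Deviations from the group means correlated between arrays of the same number (r 0.46, 0.49, 0.52 and 0.53), so the numbers were treated as pairs in an alternative fit; with slide means removed r was 0.05 and 0.21. Alternatives were normexp on median spot and background signals (offset 50; mean signals not used here), quantile and median normalization, the deposited table, 2 other filters, the mean over probes, other slide terms, the replicate block, each slide alone and leaving out each array. On simulated data with 200 changed genes the same fit of Irf2AhcKO against control, over 25404 features in 10 sets, recovered 72% of 2-fold and 94.7% of 4-fold changes. The simulated noise was independent between features and drawn at each feature's fitted variance. The median SE was 0.13 over all features, 0.18 over the 29 genes and 0.26 over the hormones. The shares recovered therefore cannot be read as those for the 29 genes. With 4 arrays a group, the number of arrays limits the precision.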

Additional observations from a re-analysis of the deposited data

Results flagged for a closer look

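In 90 sets of a named gene in a group of 4 arrays, 1 array stood far from the other 3 in 4 sets, and chance alone gives about 1 in 20. Somatostatin (Sst) had its highest Irf2AhcKO level, -1.46, on replicate 4. Neurod1 had its highest control level, -2.31, on replicate 2. Nkx2-2 had its highest Irf2AhcKO level, 3.25, on replicate 3. Cadps2 had its lowest Irf2AhcKO level, -2.46, on replicate 4. Pax4, left out of the test as a dim probe, was well above background on 3 Irf2AhcKO arrays and on 0 control arrays, with a fitted log2 difference of 1.13. With no control array well above background that difference is not a measured fold. The value of 1.59-fold over control levels raised to the floor of detection is not a strict bound either. It includes an Irf2AhcKO array that was not well above background, and the groups overlapped.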

How the results depend on the processing

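None of the 29 genes passed in any of 20 alternatives, whose smallest limma adjusted p was 0.0965 (Chga, normexp), and the genes' median difference stayed between -0.03 and 0.14. Over all features 25 passed in the reported fit, against 128 with normexp, 7 with no filter, 46 with probes well above background on all arrays, 44 with slide as a random block, 0 within slide 1, 0 within slide 2 and 0 to 25 with 1 array left out. The count of other pathway genes (1, Cadps2) was 0 within either slide and 0 to 1 with 1 array left out. With the replicate block, which pairs same-numbered arrays, 0 features (3293 at an unadjusted p below 0.05), 0 of the 29 genes (7 unadjusted) and 0 other pathway genes passed, and it changed no other group call reported here. The sign of 16 genes held in each alternative in which they were fitted (Nts, Scg3, Scg5, Tph1 and Isl1 drop out where probes must be well above background on all arrays) and that of 13 turned in some, all with a value near 0 or a wide spread in the reported fit. It turned for Insm1 with normexp (0.0062) and within slide 2 (0.073), for Cplx2 with quantile normalization (0.0071) and with the mean over probes (0.32), and for Cpe with the mean over probes (-0.011) and within slide 1 (-0.14). Within slide 1 it also turned for Sst (0.24) and Pcsk1n (0.012), and within slide 2 for Gcg (0.020), Nts (0.88), Scg3 (0.17), Neurod1 (-0.0051) and Isl1 (-0.16). With 1 array left out, values ran from -0.10 to 0.21 for Cpe, -0.085 to 0.011 for Cplx2, -0.14 to 0.023 for Ddc, -0.34 to 0.30 for Gcg, -0.23 to 0.24 for Insm1, -0.16 to 0.32 for Isl1, -0.37 to 0.14 for Lmx1a, -0.048 to 0.15 for Neurod1, -0.031 to 0.32 for Nkx2-2, -1.43 to 0.0028 for Nts, -0.057 to 0.019 for Pcsk1n and -0.36 to 0.14 for Sst. The cause was not tested. Dim probes such as those of Nts, Isl1 and Tph1 lie near background, which limits what their values show.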
